A study of Mus musculus with 931 samples.

Results

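The endoplasmic reticulum (ER) folding and unfolded protein response genes studied here were 38 of the 40824 gene rows in the count tables, and all 38 were found by their symbols. They comprise 8 ER chaperones, 4 J-domain co-chaperones, 8 genes of disulfide bond formation, 5 stress sensors and regulators, 7 genes of ER-associated degradation and 6 genes of protein translocation. Their reads were followed from late gestation to adulthood in the insulin-making β cells and glucagon-making α cells of the mouse pancreatic islet. Bulk RNA sequencing covered 14 poly(A), strand-specific libraries of sorted cells from Ins1-RFP mice, 2 libraries at each of 7 stages: the embryonic stage E17.5 and postnatal days 0, 3, 9, 15, 18 and 60 (P0 to P60). Single cells were sequenced with Smart-seq2, a full-length method without molecular identifiers. The 328 α cells, in 20 batches at 6 stages (none at P3), came from Gcg-Cre; Rosa-RFP mice, in which a Cre driven by the glucagon gene switches on RFP, of mixed C57BL/6, CBA/J and C3H background. The 538 β cells, in 25 batches at 7 stages, came from Ins1-RFP mice of mixed C57BL/6 and C3H background, which carry RFP under the Ins1 promoter. Collection was by FACS for some cells and by hand-picking for the rest. α and β cells thus differ in reporter and strain background as well as in type, and these cannot be told apart. A batch, but no animal, is named for each cell, so p-values measure the spread between libraries or batches, which may be technical.

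Bulk libraries held 10.3 M to 21.4 M gene reads, batches 5.96 M to 49.1 M from 5 to 39 cells, and cells 520690 to 1799597 reads (median 1.15 M). Levels are CPM, a gene's reads per 1 M gene reads of its library, scaled by edgeR's TMM factors, and tests are edgeR's quasi-likelihood test with Benjamini-Hochberg adjustment over all genes, called below 0.05. The labels held against defining markers: 8 β-cell markers summed to 502 to 5987 CPM in α batches and 176655 to 804026 CPM in β batches, and 8 α-cell markers to 70665 to 603949 CPM in α batches and 503 to 1480 CPM in β batches. The bulk libraries also held digestive-enzyme transcripts of acinar cells, which themselves have a large ER. The 14 acinar markers summed to between 286 and 76850 CPM in bulk libraries, with none at 0 in any library, to 35.6 to 1535 CPM in α batches and to 0.0449 to 190 CPM in β batches. In bulk samples, fewer cells of a type and less RNA per cell cannot be told apart.

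Insulin and glucagon enter the ER as prohormones through the Sec61 channel, are folded by chaperones, and proinsulin is given its disulfide bonds by protein disulfide isomerases before export. When unfolded protein accumulates, the sensors IRE1, PERK and ATF6 start the unfolded protein response: IRE1 splices the mRNA of the transcription factor XBP1, ATF6 is cleaved into a transcription factor, and PERK slows translation. XBP1 and ATF6 raise chaperones, oxidoreductases and degradation genes through ER stress response elements (ERSE) in their promoters. β cells are known to depend on this system, and loss of PERK or of WFS1 leads to diabetes in mice and humans. Gene-level counts do not separate the spliced from the unspliced form of Xbp1.

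The promoter sequences show which members carry that element. Because the members were listed as genes of the response that acts through it, the shares below are a description and no independent support. RefSeq promoters (GRCm38.p6, 250 bases before to 50 after the start) were matched for 32 of the 38 members, Ero1l and Ero1lb under their current symbols Ero1a and Ero1b. The 6 without an entry were Hyou1, Manf, Atf6, Derl1, Sec61a1 and Ssr2. These members had 35 promoters, and a member was counted if any of its promoters matched, whereas all RefSeq promoters were counted singly. The ERSE was searched on both strands as CCAAT and CCACG with 9 free bases between them. It was present in 10 of the 32 members (31.25%), against 39 of all 32851 RefSeq promoters of this length (0.119%). The related ERSE-II, ATTGG and CCACG with 1 free base between them, was in 2 (6.25%), against 12 of all promoters (0.037%). The XBP1 core TGACGTGG was in 1 member, Txndc5, against 222 of all promoters (0.676%). No member promoter held more than 1 kind of these 3 motifs. A match is a description of these letters and not a measured binding site. The ERSE copies are shown with the fixed ends in capitals and the free spacer in lower case, each read on the strand where the motif matches:
Hspa5 (chr2:34772025-34772043, + strand): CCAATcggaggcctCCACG
Hsp90b1, first copy (chr10:86705638-86705656, - strand): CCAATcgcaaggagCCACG
Hsp90b1, other copy (chr10:86705533-86705551, + strand): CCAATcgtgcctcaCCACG
Calr (chr8:84847075-84847093, + strand): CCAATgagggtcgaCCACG
Canx (chr11:50325800-50325818, - strand): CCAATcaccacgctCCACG
Creld2 (chr15:88819520-88819538, - strand): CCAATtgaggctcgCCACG
Dnajc3 (chr14:118937827-118937845, + strand): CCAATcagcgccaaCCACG
Pdia6 (chr12:17266491-17266509, + strand): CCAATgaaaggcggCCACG
Ero1lb (chr13:12565682-12565700, - strand): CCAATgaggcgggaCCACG
Syvn1 (chr19:6046532-6046550, + strand): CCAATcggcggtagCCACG
Derl3 (chr10:75893242-75893260, - strand): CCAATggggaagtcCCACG
The ERSE-II copies were those of Dnajb11 and Herpud1:
Dnajb11 (chr16:22857852-22857862, + strand): ATTGGcCCACG
Herpud1 (chr8:94386377-94386387, + strand): ATTGGgCCACG

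Whole promoters are shown for 3 carriers: Hspa5 and Derl3, which fell in β cells, and Ero1lb, which rose. Derl3 also had few reads in α cells. All are on the + strand of GRCm38.p6, with the ERSE ends in capitals (reversed and complemented in Ero1lb and Derl3):
Hspa5 (chr2:34771840-34772139): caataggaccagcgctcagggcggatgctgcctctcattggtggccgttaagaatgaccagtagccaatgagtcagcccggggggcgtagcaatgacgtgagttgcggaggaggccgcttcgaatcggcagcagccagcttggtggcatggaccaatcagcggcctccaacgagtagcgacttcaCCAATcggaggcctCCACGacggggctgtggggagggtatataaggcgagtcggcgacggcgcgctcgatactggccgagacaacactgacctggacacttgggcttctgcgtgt
Ero1lb (chr13:12565633-12565932): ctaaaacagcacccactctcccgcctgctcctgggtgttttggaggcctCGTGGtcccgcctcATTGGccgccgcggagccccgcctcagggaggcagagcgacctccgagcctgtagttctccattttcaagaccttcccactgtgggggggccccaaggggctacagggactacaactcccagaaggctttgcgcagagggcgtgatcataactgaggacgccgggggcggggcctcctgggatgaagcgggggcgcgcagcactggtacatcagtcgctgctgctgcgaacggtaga
Derl3 (chr10:75893148-75893447): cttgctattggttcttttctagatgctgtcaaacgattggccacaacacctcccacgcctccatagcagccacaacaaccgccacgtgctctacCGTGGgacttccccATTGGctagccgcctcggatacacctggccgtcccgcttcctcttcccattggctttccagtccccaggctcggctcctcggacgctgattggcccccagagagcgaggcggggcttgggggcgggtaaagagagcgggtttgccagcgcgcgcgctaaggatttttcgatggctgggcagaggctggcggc

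Of the 8 chaperones, 4 were lower at P60 than at E17.5 in bulk β cells and 6 in single β cells, while the oxidase gene Ero1lb was higher at P60 in both. Of all genes 15.2% were called lower and 13.8% higher in bulk, and 3.89% and 3.08% in single β cells. With the summed acinar markers as a covariate, the only members called in bulk were Xbp1 and Ero1lb. Scaled to the ERCC spike-ins, Creld2 was the only chaperone called lower in single β cells. By stage means the chaperones were highest at E17.5 in both data sets except Canx, highest at P60 in bulk and P18 in single β cells, and Hyou1, highest at P3 in single β cells. Hspa5 (ENSMUSG00000026864, chr2:34772090-34776529) encodes BiP, the main Hsp70 chaperone of the ER lumen. Its bulk CPM were 3870 and 4576 at E17.5, 1763 and 1889 at P0, 3546 and 3415 at P3, 2467 and 2343 at P9, 1807 and 1464 at P15, 2583 and 1999 at P18, and 1697 and 2727 at P60. Every later library lay below both E17.5 libraries, and those of P3 lay nearest to them. Ero1lb (ENSMUSG00000057069, chr13:12565818-12609533) encodes a pancreas-enriched oxidase that recharges protein disulfide isomerases. Its bulk CPM were 1191 and 1202 at E17.5, 804 and 900 at P0, 964 and 1402 at P3, 1807 and 1741 at P9, 2021 and 1931 at P15, 3223 and 2818 at P18, and 4658 and 4709 at P60. Both P60 libraries were above every earlier one. Per kilobase of deposited gene length, Hspa5 had the highest bulk level of the 38 members at E17.5 (1616 CPM per kb). At P60 Ero1lb stood first (1105 CPM per kb) and Hspa5 next to it (847 CPM per kb).

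**Figure D1:**
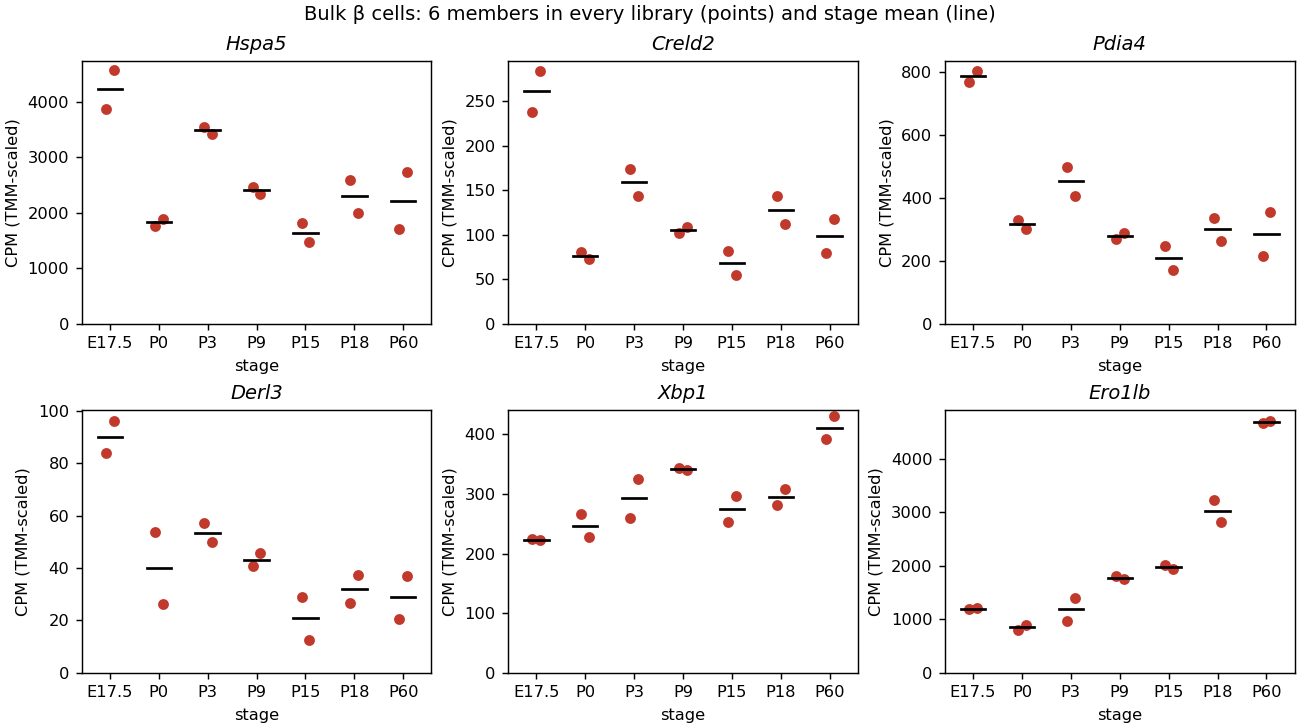
Levels of 6 members in bulk β cells, in CPM on linear axes that start at 0, against stage; points are single libraries and bars their stage mean. Hspa5, Creld2, Pdia4 and Derl3 were highest at E17.5, whereas Xbp1 and Ero1lb were highest at P60, Ero1lb at 4658 and 4709 CPM.

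Between P60 and E17.5, 15 of the 38 members changed in bulk β cells, 5 higher and 10 lower, where 29.1% of the 16086 tested genes were called. Among members the shares by direction were thus to be read against 13.8% of all genes higher and 15.2% of all genes lower. The median log2 change of the 38 members was -0.07, against -0.03 for all genes, and all 38 members passed the filter on low counts. With the hormone genes left out of the library size and no TMM factor, which moved the median of all genes to -0.22, 18 members were called, 3 higher and 15 lower. The share of all genes called in that fit is not given here.

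Of the 8 chaperones, 4 fell at P60. Hspa5 fell by 0.93 on the log2 scale (SE 0.24, adjusted p = 0.0123). Hsp90b1, the ER Hsp90 also called GRP94, had 1384 and 1884 CPM at P60, against 2987 and 2848 CPM at E17.5 (log2 change -0.84, SE 0.21, adjusted p = 0.0126). Calr, the lectin chaperone calreticulin, had 854 and 1251 CPM at P60, against 1745 and 1951 CPM at E17.5. Creld2, an ER stress-inducible protein, fell the furthest of the 8, to 79.8 and 118 CPM at P60, against 238 and 284 CPM at E17.5 (log2 change -1.40, SE 0.23, adjusted p = 0.00114). The chaperones that were not called ranged in log2 change between -0.90 for Sdf2l1, a partner of BiP and its J proteins, and 0.13 for Canx, the membrane lectin calnexin. Hyou1, which exchanges the nucleotide of BiP, and Manf, a secreted BiP-binding factor, lay between them at -0.54 and -0.58.

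None of the J-domain proteins, which bring substrates to BiP, was called by edgeR between P60 and E17.5. Dnajb9, which also restrains IRE1, had 335 and 644 CPM at P60, against 229 and 253 CPM at E17.5 (log2 change 1.02, SE 0.38, adjusted p = 0.0622). Its groups did not overlap, but the P60 libraries differed widely from each other. Dnajb11 had a log2 change of -0.66, Dnajc3 one of 0.41 and Dnajc10, which is also a disulfide reductase, one of 0.08.

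Among the 8 disulfide genes Ero1lb rose (log2 change 1.97, SE 0.20, adjusted p = 4.71e-05) and Pdia4, a protein disulfide isomerase, fell. Pdia4 had 215 and 354 CPM at P60, against 768 and 803 CPM at E17.5 (log2 change -1.47, SE 0.25, adjusted p = 0.00124). The other isomerases were not called: Pdia6 had a log2 change of -0.72, Pdia3 of -0.58, P4hb of -0.23 and Txndc5 of 0.20. Ero1l, the widely expressed oxidase, had 103 and 126 CPM at P60, against 125 and 114 CPM at E17.5. Prdx4, a peroxiredoxin that uses the peroxide made by these oxidases, had 22.9 and 18.9 CPM at P60, against 24.9 and 15.5 CPM at E17.5.

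Of the 5 sensors and regulators, 3 rose at P60. Over the 38 members 13.2% were called higher, near the 13.8% of all genes. With the summed acinar markers as a covariate, Xbp1 alone of the 3 was called. Xbp1 (ENSMUSG00000020484, chr11:5520641-5525993) had 392 and 430 CPM at P60, against 224 and 223 CPM at E17.5 (log2 change 0.88, SE 0.16, adjusted p = 0.00169). Ern1, the gene of IRE1, had 274 and 267 CPM at P60, against 165 and 169 CPM at E17.5. Eif2ak3, the gene of PERK, had 89.9 and 123 CPM at P60, against 65.5 and 60.8 CPM at E17.5. In all of these the groups did not overlap, as in 26 of the 38 members in this comparison. The share of all genes without overlap was not counted. Atf6 and Wfs1, an ER membrane protein mutated in Wolfram syndrome, had log2 changes of 0.40 and 0.33 and were not called.

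Of the 7 degradation genes, Derl1 rose and Derl2, Derl3 and Syvn1 fell. The Derlins help to move misfolded proteins out of the ER, and Syvn1 encodes HRD1, the ubiquitin ligase of that route. Derl3 (ENSMUSG00000009092, chr10:75893398-75895941) fell the most of all 38 members on the log2 scale, to 20.6 and 37.1 CPM at P60, against 84.1 and 96.1 CPM at E17.5 (log2 change -1.64, SE 0.41, adjusted p = 0.0112). Derl1 had 189 and 213 CPM at P60, against 143 and 138 CPM at E17.5. Sel1l, the partner of HRD1, had a log2 change of -0.09, Edem1, which marks misfolded glycoproteins, one of -0.03 and Herpud1, a stress-induced organiser of the HRD1 complex, one of 0.57. Of the 6 translocation genes, Ssr2 and Sec61b fell. Ssr2, a subunit of the translocon-associated TRAP complex, had 151 and 192 CPM at P60, against 469 and 340 CPM at E17.5 (log2 change -1.24, SE 0.28, adjusted p = 0.00663). The channel subunit Sec61a1 and the TRAP subunits Ssr1, Ssr3 and Ssr4 had log2 changes between -0.27 and 0.14 and were not called.

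The number of members called was 7 without P60 replicate 1, 12 without P60 replicate 2, 8 without E17.5 replicate 1 and 5 without E17.5 replicate 2, and Xbp1, Creld2, Pdia4 and Ero1lb were called whichever library of these stages was left out. Acinar markers summed to 66589 and 23743 CPM at P60 and to 7248 and 2106 CPM at E17.5. With that sum as a covariate 2 members were called, Xbp1 and Ero1lb. Mesenchymal markers summed to 2.24 to 9.70 CPM at P60 and 68.5 to 160 CPM at E17.5, and endothelial markers to 9.65 to 21.8 CPM at P60 and 40.4 to 48.2 CPM at E17.5. Their part in these values was not tested. Xist, expressed in females, was at 0.425 and 0.767 CPM at P60 and at 609 and 517 CPM at E17.5, and with its level as a covariate 4 members were called, Xbp1, Creld2, Pdia4 and Ero1lb.

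**Figure D2:**
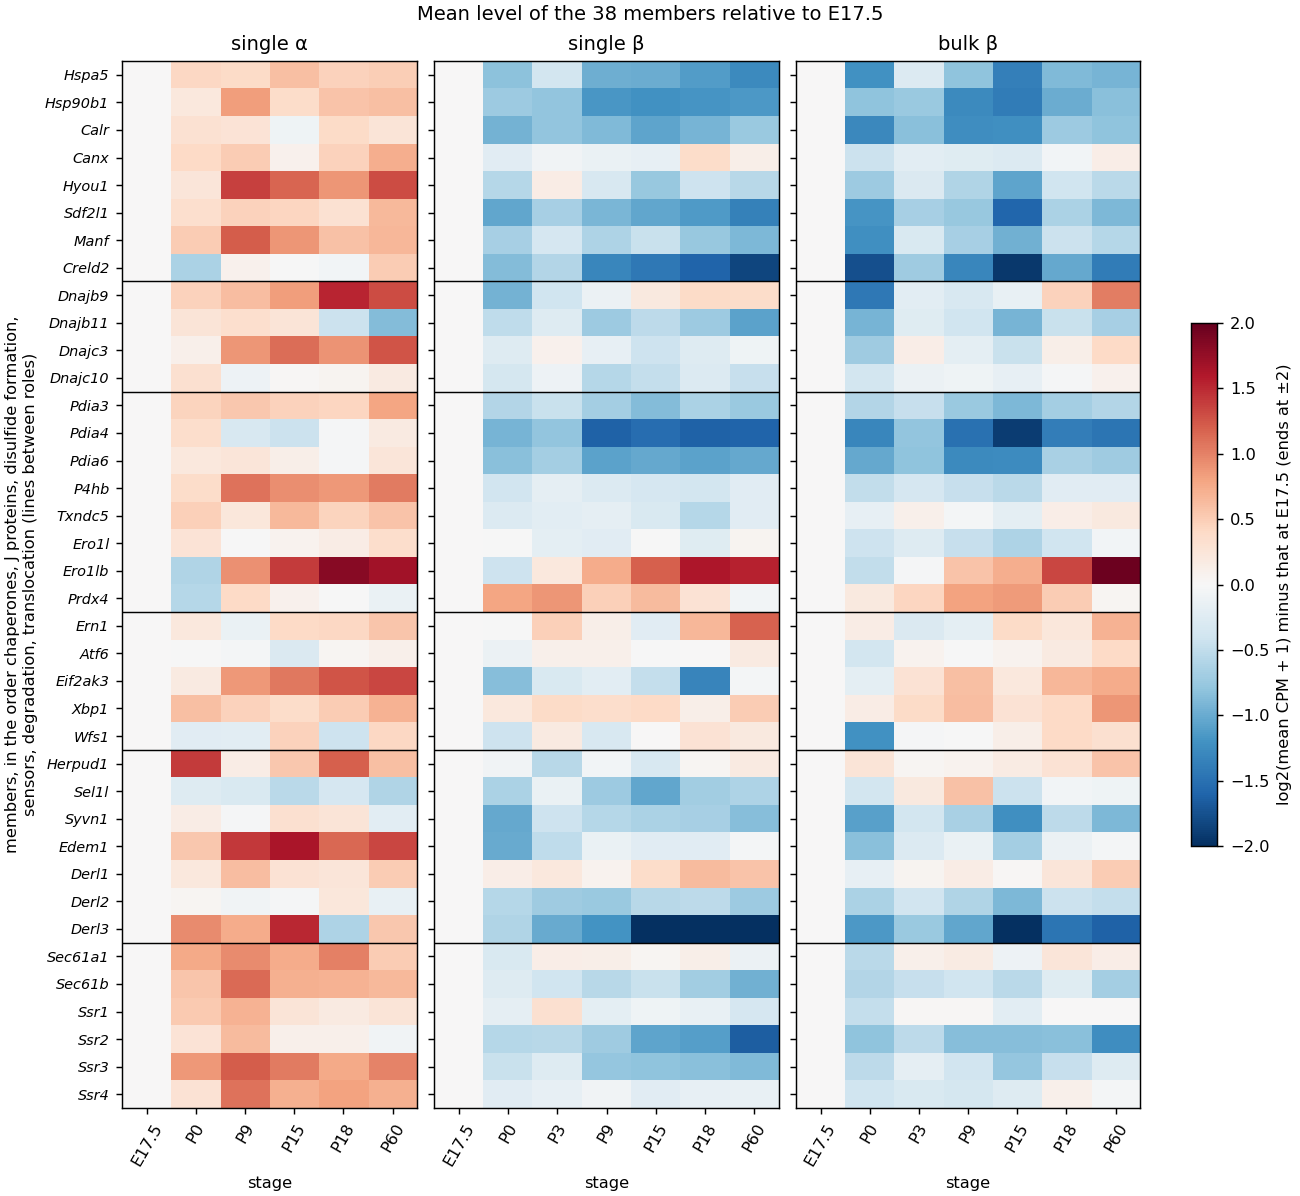
Mean level of each of the 38 members by stage in single α cells, single β cells and bulk β cells, as log2(mean CPM + 1) minus its value at E17.5, with colours ending at 2 in either direction; rows run by role, from chaperones to translocation. Hspa5, Hsp90b1, Calr, Creld2 and Pdia4 stayed below their E17.5 level at every later stage in both β panels, and P4hb and Ssr3 above it at every later stage in the α panel.

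Of the 6 steps between neighbouring stages, that from E17.5 to P0 had the most members called. Of the 38 members 13 were lower and 0 higher at P0 than at E17.5, where 6.34% of all genes were called, 2.98% higher and 3.36% lower. The median log2 change of the members was -0.58, against 0.03 for all genes. The chaperones Creld2 (-1.77), Calr (-1.29), Manf (-1.23), Hspa5 (-1.21) and Hsp90b1 (-0.81) fell, as did the J proteins Dnajb9 (-1.45) and Dnajb11 (-0.94). Pdia4 (-1.31) and Pdia6 (-1.02) fell among the disulfide genes, and Syvn1 (-1.09), Edem1 (-0.84) and Derl2 (-0.64) among the degradation genes. Wfs1 (ENSMUSG00000039474, chr5:36966104-36988982) was the only sensor or regulator called. It had 61.1 and 78.3 CPM at P0, against 146 and 178 CPM at E17.5 (log2 change -1.22, SE 0.16, adjusted p = 0.00589). Xbp1 had 267 and 227 CPM at P0, against 224 and 223 CPM at E17.5, and was not called.

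Without E17.5 replicate 1 or 2, or P0 replicate 1 or 2, edgeR called 1, 0, 0 and 2 members, and 34 or 35 of the 38 fitted changes were negative. Other cell types' markers also differed, with none at 0. Mesenchymal markers (7 genes) summed to 335 to 1140 CPM at P0 and 68.5 to 160 CPM at E17.5, immune markers (6 genes) to 61.8 to 137 CPM at P0 and 19.3 to 21.9 CPM at E17.5. Endothelial markers (6 genes) summed to 56.9 to 165 CPM at P0 and 40.4 to 48.2 CPM at E17.5, and duct markers (7 genes) to 599 to 744 CPM at P0 and 442 to 563 CPM at E17.5. Their part in the fall was not tested. Acinar markers summed to 286 and 1051 CPM at P0 and to 7248 and 2106 CPM at E17.5. With that sum as a covariate no member was called by edgeR, 17 had an unadjusted p below 0.05, and 37 of 38 had a negative change with a median of -0.60.

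Between P3 and P0 Wfs1 and Creld2 rose (2.45% of all genes called, 1.53% higher and 0.92% lower), and 36 of the 38 fitted changes were positive, with a median log2 change of 0.43 against -0.0045 for all genes. Wfs1 had 153 and 166 CPM at P3, against 61.1 and 78.3 CPM at P0 (log2 change 1.2, adjusted p = 0.00777). Creld2 had 174 and 144 CPM at P3, against 80.4 and 72.7 CPM at P0 (log2 change 1.05, adjusted p = 0.0387). Acinar markers summed to 36301 and 28558 CPM at P3, against 286 and 1051 CPM at P0, and with that sum as a covariate edgeR called neither gene. No member was called by edgeR from P3 to P9, P9 to P15, P15 to P18 or P18 to P60, where 0.0746%, 0.0%, 0.0% and 1.55% of all genes were called. From P18 to P60, 0.814% of all genes were higher and 0.734% lower, and from P3 to P9 0.0373% in each direction. In these steps 6, 10, 10 and 2 members had an unadjusted p below 0.05, and DESeq2 called 0, 1, 0 and 2. Over all 7 stages in 1 test 20 members were called (31.2% of all genes).

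Against E17.5, P9 libraries had 7 members called, 1 higher and 6 lower, where 8.18% of all genes were called, 4.69% higher and 3.49% lower. With the hormone genes left out of the library size 10 were called, 0 higher and 10 lower, at a share of all genes not given here. Xbp1 rose to 344 and 340 CPM at P9, against 224 and 223 CPM at E17.5 (log2 change 0.61, adjusted p = 0.0323). Pdia4 (-1.50), Creld2 (-1.31), Pdia6 (-1.28), Hsp90b1 (-1.27), Calr (-1.25) and Derl2 (-0.61) fell. Without 1 library of these stages 2 to 3 members were called, Hsp90b1 and Pdia4 each time, and with the acinar sum as a covariate edgeR called 0 (4 at an unadjusted p below 0.05). Between P60 and P9 the called members were 3 higher and 1 lower, where 16.2% of all genes were called, 6.79% higher and 9.43% lower. Ero1lb rose to 4658 and 4709 CPM at P60, against 1807 and 1741 CPM at P9 (log2 change 1.40, adjusted p = 0.00171). Dnajb9 (1.35) and Ern1 (0.89) also rose. Sel1l fell to 282 and 297 CPM at P60, against 456 and 472 CPM at P9 (log2 change -0.68, adjusted p = 0.0254). Leaving out 1 library of these stages left 1 to 3 of the 4, Ero1lb each time.

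At P15, replicate 2 was lower than replicate 1 in 33 of the 38 members, with a median ratio of 0.737. At P60, replicate 2 was higher than replicate 1 in 35 members, with a median ratio of 1.36. Summed over the members, the level was 24466 and 25429 CPM at E17.5, 14526 and 14507 at P0, 19747 and 19334 at P3, 16826 and 17215 at P9, 17015 and 12741 at P15, 21821 and 18093 at P18, and 18976 and 25122 at P60. P60 replicate 2 lay within the E17.5 range in this sum, and P60 replicate 1 below it. By stage means, 20 members were highest at E17.5 and 12 at P60, while 16 were lowest at P0 and 15 at P15.

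**Figure D3:**
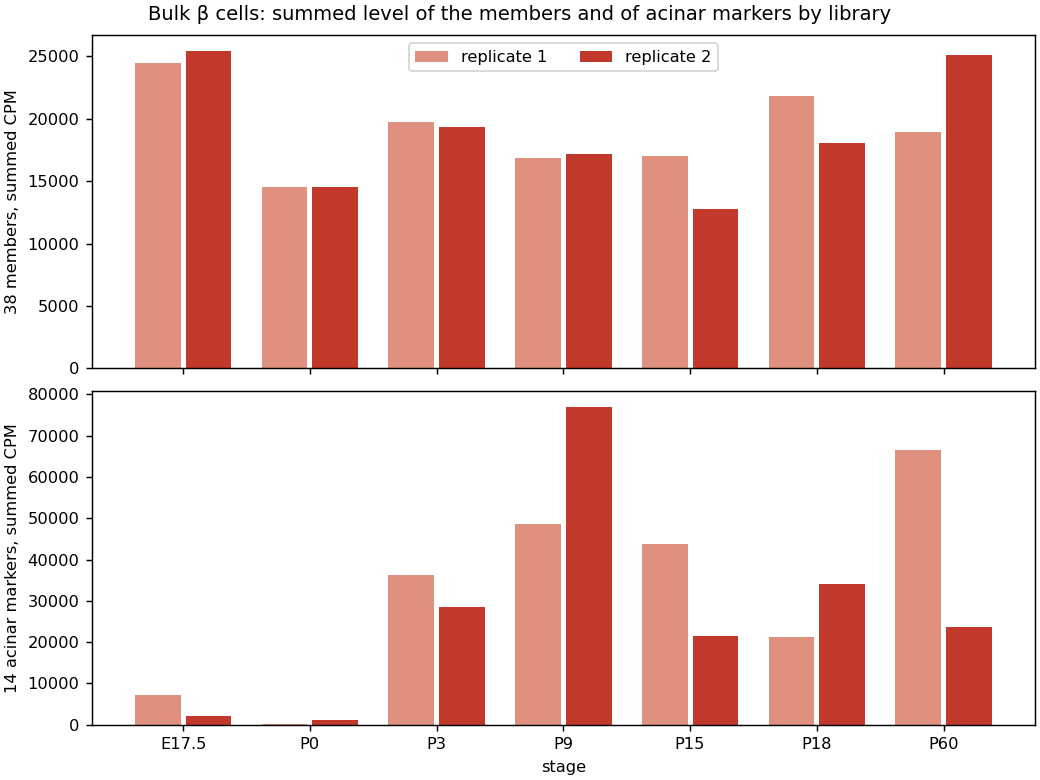
Summed CPM of the 38 members (upper panel) and of the 14 acinar markers (lower panel) in every bulk library, by stage; bars are single libraries on axes that start at 0. Of the P60 libraries, replicate 1 held 18976 CPM of the members and 66589 CPM of acinar markers, and replicate 2 held 25122 CPM of the members and 23743 CPM of acinar markers.

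In single β cells the acinar markers summed to 10.8 to 24.0 CPM at P60 and 5.93 to 8.40 CPM at E17.5, with 2 to 8 and 6 to 9 of the 14 at 0. The 5 delta-cell markers summed to 3.94 to 25.4 CPM at P60 and 846 to 1042 CPM at E17.5, with 1 to 2 and 1 to 3 of the 5 at 0, and their part in the results was not tested. Between P60 and E17.5, 18 of the 38 members changed, 2 higher and 16 lower, where 6.97% of the 18537 tested genes were called, 3.08% higher and 3.89% lower. The median log2 change of the members was -0.39, against -0.01 for all genes. Of the members called, 12 were also called in bulk, all in the same direction, which is 80.0% of the 15 in bulk and 66.7% of the 18 in single cells. The same overlap was not counted over all genes, so whether it is particular to the members was not tested.

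Of the 8 chaperones, 6 fell in single β cells. Hspa5 had a median of 1223 CPM in the 5 P60 batches (range 769 to 1632), against 2684, 3199 and 2909 CPM in the E17.5 batches, with no overlap (log2 change -1.28, SE 0.21, adjusted p = 7.08e-05). Creld2 had 231, 53.2, 118, 116 and 134 CPM at P60, against 300, 464 and 642 CPM at E17.5 (log2 change -1.85, SE 0.33, adjusted p = 0.000221). Sdf2l1 (-1.37), Hsp90b1 (-1.15), Manf (-0.92) and Calr (-0.75) fell too. Hyou1 (-0.56) and Canx (0.12) were not called. Of the J proteins Dnajb11 fell (-1.08), while Dnajb9 (0.37), Dnajc3 (-0.09) and Dnajc10 (-0.44) were not called.

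Among the disulfide genes Pdia4, Pdia6 and Pdia3 fell and Ero1lb rose. Pdia4 had 289, 229, 283, 276 and 268 CPM at P60, against 716, 810 and 943 CPM at E17.5 (log2 change -1.61, SE 0.21, adjusted p = 1.17e-06). Ero1lb had 2849, 2202, 2921, 2161 and 2078 CPM at P60, against 763, 983 and 773 CPM at E17.5 (log2 change 1.55, SE 0.28, adjusted p = 0.000204). Every P60 batch thus lay above every E17.5 batch in Ero1lb and below every one in Pdia4. P4hb (-0.23), Txndc5 (-0.22), Prdx4 (-0.07) and Ero1l (0.06) were not called.

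Of the 5 sensors and regulators only Ern1 was called, with 27.6, 47.2, 48.1, 43.5 and 31.9 CPM at P60, against 16.4, 22.0 and 12.7 CPM at E17.5 (log2 change 1.23, adjusted p = 0.00819). Xbp1 had 458, 308, 464, 497 and 509 CPM at P60, against 276, 341 and 325 CPM at E17.5 (log2 change 0.51, adjusted p = 0.0864). P60 replicate 2 overlapped the E17.5 batches. Wfs1 (0.20), Atf6 (0.19) and Eif2ak3 (0.01) were not called. In the degradation group Derl3 had 32.6, 17.2, 26.5, 9.12 and 4.58 CPM at P60, against 120, 108 and 142 CPM at E17.5 (log2 change -2.77, SE 0.88). Its adjusted p of 0.049997 lay just under the threshold. Syvn1 (-0.93) and Derl2 (-0.73) fell, and Sel1l (-0.62), Edem1 (-0.05), Herpud1 (0.19) and Derl1 (0.57) were not called.

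Of the 6 translocation genes, 3 fell. Ssr2 had 309, 133, 241, 209 and 212 CPM at P60, against 799, 562 and 733 CPM at E17.5 (log2 change -1.67, SE 0.17, adjusted p = 6.08e-09), the smallest adjusted p of the 38 members in this comparison. Sec61b (-0.97) and Ssr3 (-0.88) fell, and Ssr1 (-0.34), Ssr4 (-0.15) and Sec61a1 (-0.11) were not called. Already at P9, 6 members were lower than at E17.5, where 1.25% of all genes were called, 0.707% higher and 0.545% lower. They were Pdia4 (-1.62), Hsp90b1 (-1.17), Pdia6 (-1.07), Hspa5 (-0.98), Calr (-0.89) and Pdia3 (-0.69). Without 1 batch of these stages 3 to 6 were called. Between P60 and P9 only Ssr2 was called, at 309, 133, 241, 209 and 212 CPM at P60 against 489, 423 and 369 CPM at P9 (log2 change -0.96, adjusted p = 0.00153). In that comparison 0.626% of all genes were called, 0.173% higher and 0.453% lower. Ssr2 was not called by edgeR in FACS-sorted batches alone (log2 change -0.71), in hand-picked batches alone (-1.14) or on the spike-in scale (-0.58). Over the 7 stages 14 members were called (7.09% of all genes).

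The β-cell counts stood at 14 to 18 when 1 batch of P60 or E17.5 was left out, and at 15 in hand-picked batches alone. In FACS-sorted batches alone, with 2 batches at P60 and 1 at E17.5, Ssr2 alone was called (14 members at an unadjusted p below 0.05), with a member median of -0.37. Scaled to the ERCC spike-ins, 5 members were called: Ern1 and Ero1lb higher, and Creld2, Pdia4 and Ssr2 lower.

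In α cells, between P60 and E17.5, 15 members changed by edgeR on reads summed per batch, 14 higher and 1 lower, where 9.97% of all genes were called, 4.3% higher and 5.66% lower. With equal weight per cell and no TMM factor limma called 2 higher and 11 lower, and scaled to the spike-ins edgeR called 1. The shares of all genes called in these fits are not given here, and their median changes are given below. Of the 15 members, 7 were also called in β cells (46.7% of 15 and 38.9% of 18), Ero1lb and Dnajb11 in the same direction in both. This overlap was not counted over all genes either. The median log2 change of the members was 0.55, against -0.0028 for all genes. P4hb had 475, 551, 515, 673 and 610 CPM at P60, against 282, 270, 341 and 201 CPM at E17.5 (log2 change 1.03, SE 0.12, adjusted p = 3.42e-07). All P60 batches lay above all E17.5 batches. Pdia3 (0.78) and Ero1lb (1.66) also rose among the disulfide genes. Ero1lb had 113, 119, 74.6, 184 and 143 CPM at P60, against 45.9, 39.6, 28.0 and 41.6 CPM at E17.5. Pdia6 (0.23), Pdia4 (0.14), Prdx4 (-0.15), Ero1l (0.35) and Txndc5 (0.56) were not called.

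Of the chaperones Hyou1 (1.30), Manf (0.76), Canx (0.70) and Hsp90b1 (0.62) rose. Hsp90b1 had 579, 662, 518, 630 and 833 CPM at P60, against 414, 444, 456 and 390 CPM at E17.5 (SE 0.16, adjusted p = 0.0116). Hspa5 had 524, 768, 665, 580 and 831 CPM at P60, against 586, 407, 614 and 300 CPM at E17.5, and with overlapping groups it was not called (log2 change 0.52, adjusted p = 0.101). Sdf2l1 (0.70), Creld2 (0.52) and Calr (0.26) were not called. The J proteins Dnajb9 (1.35) and Dnajc3 (1.30) rose and Dnajb11 (-0.89) fell. Dnajc3, which inhibits PERK and serves BiP, had 143, 192, 147, 201 and 165 CPM at P60, against 80.1, 90.2, 49.1 and 62.0 CPM at E17.5 (SE 0.18, adjusted p = 2.82e-06).

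Xbp1 and Eif2ak3 rose among the sensors and regulators. Xbp1 had 277, 269, 407, 307 and 375 CPM at P60, against 236, 203, 193 and 177 CPM at E17.5 (log2 change 0.70, SE 0.17, adjusted p = 0.0052). Eif2ak3 had a log2 change of 1.38 at a low level, with a mean of 18.9 CPM at P60 against 6.91 CPM at E17.5. Ern1 (0.52), Wfs1 (0.42) and Atf6 (0.13) were not called, nor was any degradation gene by edgeR, their log2 changes reaching from -0.63 for Sel1l to 1.58 for Edem1. Ssr3 (0.94), Sec61b (0.74) and Ssr4 (0.72) rose among the translocation genes, and Sec61a1 (0.49), Ssr1 (0.28) and Ssr2 (-0.04) were not called.

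All 6 translocation genes were higher at P9 than at E17.5, among 12 members called, all higher, where 3.48% of all genes were called, 2.18% higher and 1.31% lower. Ssr3 had 206, 268 and 292 CPM at P9, against 117, 105, 122 and 98.2 CPM at E17.5 (log2 change 1.19, SE 0.20, adjusted p = 0.000297). Sec61b (1.16), Ssr4 (1.10), Sec61a1 (0.94), Ssr1 (0.71) and Ssr2 (0.64) rose with it, as did Hyou1 (1.38), Manf (1.25), P4hb (1.08), Dnajc3 (0.91), Hsp90b1 (0.85) and Pdia3 (0.53). Without 1 batch of these stages 8 to 11 were called. Scaled to the spike-ins edgeR called 0 (1 at an unadjusted p below 0.05). With equal weight per cell and no TMM factor limma called 4 higher and 7 lower. For these fits the shares of all genes called are not given here. Acinar markers summed to 523 to 1535 CPM in the P9 α batches, 66.3 to 282 CPM at P60 and 92.1 to 264 CPM at E17.5, and their part in these values was not tested. Between P60 and P9 Dnajb11 (-1.24) and Ssr2 (-0.68) fell, where 0.847% of all genes were called, 0.281% higher and 0.566% lower. With the replicate block, in FACS-sorted, hand-picked or α batches alone and on the spike-in scale edgeR called neither. Of the batches left out in turn, P9 replicate 2 and P60 replicates 1, 3, 4 and 5 each left 0 members called and P9 replicate 3 left 1, and without P9 replicate 4 neither Dnajb11 nor Ssr2 was among the 2 called. Over the 6 stages 16 members were called (10.5% of all genes).

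The direction of the α-cell change depended on how cells were weighted and scaled. With every cell given equal weight, limma was run on log2(CPM + 1) without TMM factors. It called 13 members between P60 and E17.5, and the member median was -0.25, against -0.41 for all genes. Weighting and scaling thus changed together, and which of them moved the result was not tested. The TMM factors used by edgeR were 1.56 to 1.74 in the α batches at E17.5 and 0.826 to 1.12 at P60. Scaled to the ERCC spike-ins the member median was 0.0039, against -0.55 for all genes, and 1 member was called, Dnajb11, lower. On both of these scales the member median was above that of all genes. By edgeR on TMM-scaled sums 11 to 15 were called with 1 batch of P60 or E17.5 left out. Of the 38, 4 were called in FACS-sorted batches alone (member median 0.45). Hand-picked batches alone had a member median of 0.62, with replicate 4, of 6 cells, as the only such α batch at E17.5.

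**Figure D4:**
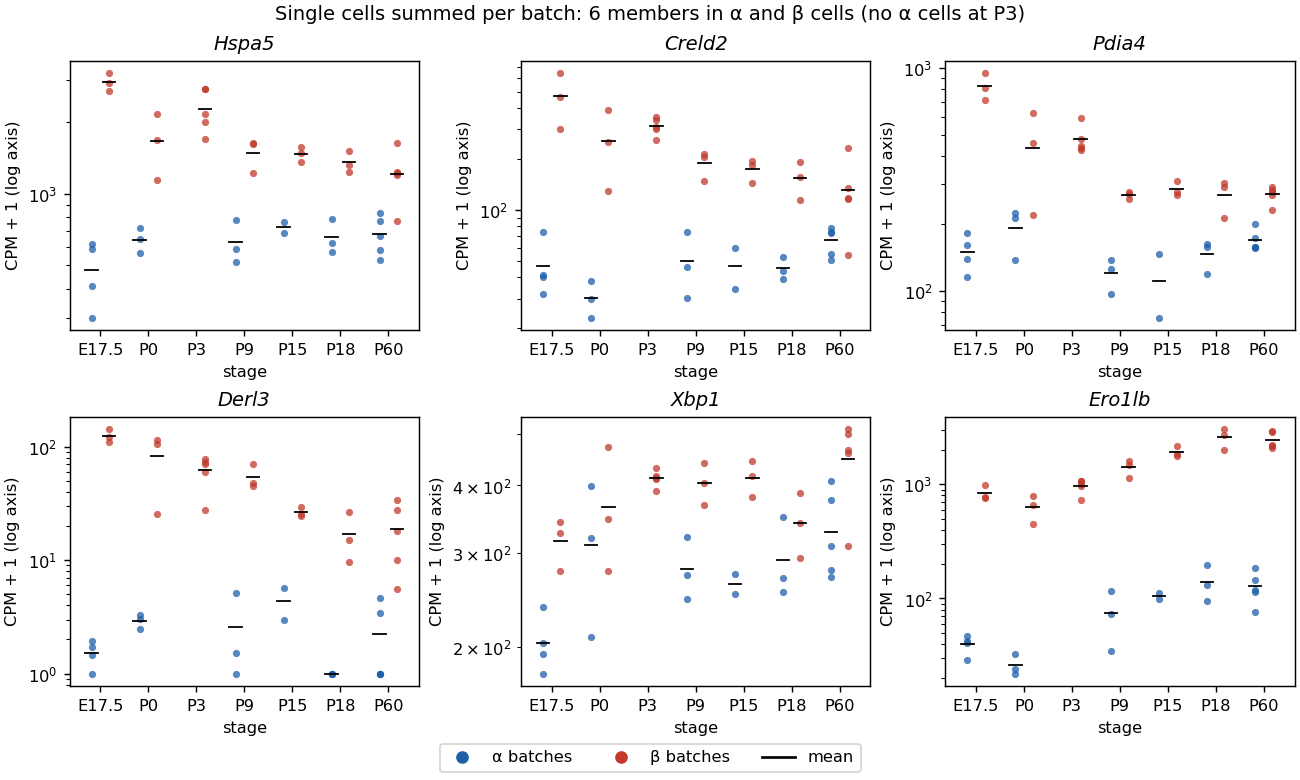
CPM + 1, on log axes, of 6 members in the batches of single α cells (left of each pair, blue) and β cells (right, red), against stage; points are batches, bars their mean, and no α cells were sequenced at P3. Hspa5 lay at 300 to 614 CPM in α batches and 2684 to 3199 CPM in β batches at E17.5, and at P60 the α and β batches of Hspa5 overlapped while those of Ero1lb did not.

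The change with age differed between the cell types for 15 members, all with the more positive change in α cells, where 3.67% of all genes were called, 2.02% with the more positive and 1.65% with the more negative change in α cells. The interaction tested the change from E17.5 to P60 in α cells minus that in β cells. Creld2 had the largest called difference (2.37, SE 0.46, adjusted p = 0.00135), followed by Sdf2l1 (2.07), Hyou1 (1.86), Ssr3 (1.81), Hspa5 (1.80), Hsp90b1 (1.76), Pdia4 (1.75), Sec61b (1.71), Manf (1.68), Ssr2 (1.62), Pdia3 (1.53), Dnajc3 (1.39), Pdia6 (1.26), P4hb (1.25) and Calr (1.00). These comprise 7 of the 8 chaperones, 4 of the 8 disulfide genes, 3 translocation genes and 1 J protein. No sensor or degradation gene was called by edgeR. Ero1lb, which rose in both types, had a difference of 0.10 (SE 0.36), Xbp1 0.19 (SE 0.24) and Wfs1 0.22 (SE 0.44). Derl3 had a difference of 3.81 (SE 1.35, adjusted p = 0.116), resting on few α-cell reads.

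The interaction count was 14 to 16 when 1 batch was left out and 11 in hand-picked batches alone, but 0 in FACS-sorted batches alone (edgeR, 15 at an unadjusted p below 0.05) and 0 when scaled to the spike-ins (10 at an unadjusted p below 0.05). The member median was 0.93 against -0.0018 for all genes over all batches, 0.63 against -0.15 in FACS-sorted batches and 0.32 against -0.67 on the spike-in scale. Equal weight per cell gave 17 members. At E17.5 the only FACS-sorted β batch was replicate 3, with 21 cells, and the only hand-picked α batch replicate 4, with 6 cells.

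**Figure D5:**
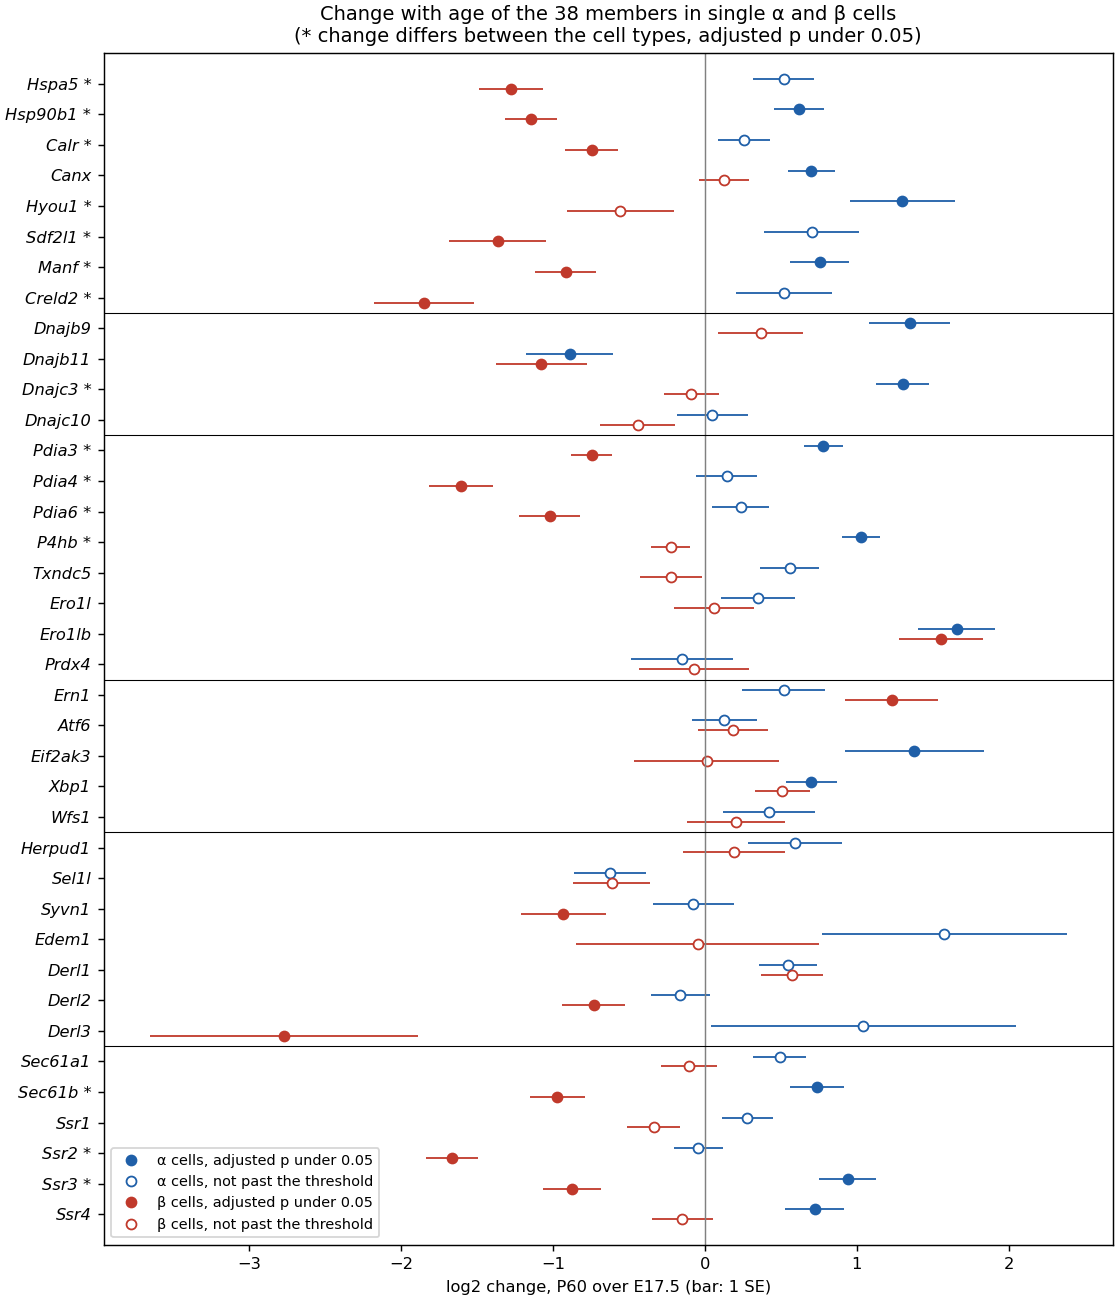
Log2 change of the 38 members, P60 over E17.5, in single α cells (blue, upper of each pair) and single β cells (red), with bars of 1 SE; filled points have an adjusted p under 0.05, and an asterisk marks members whose change differs between the types. Ero1lb rose in both types, by 1.66 in α and 1.55 in β cells, while Creld2 stood at 0.52 in α cells and -1.85 in β cells.

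At E17.5 all 38 members differed, 2 higher and 36 lower in α cells, where 8.31% of all genes were called, 3.25% higher and 5.06% lower. The median log2 difference was -2.07, against 0.06 for all genes. Hspa5 had 586, 407, 614 and 300 CPM in α batches, against 2684, 3199 and 2909 CPM in β batches (log2 difference -2.64, SE 0.23, adjusted p = 2.02e-10). Ero1lb had 45.9, 39.6, 28.0 and 41.6 CPM in α batches, against 763, 983 and 773 CPM in β batches (-4.37, SE 0.30, adjusted p = 5.23e-13). Sdf2l1 had 25.6, 18.3, 22.6 and 32.3 CPM in α batches, against 453, 484 and 587 CPM in β batches (-4.40). Creld2 (-3.36), Hyou1 (-3.19), Wfs1 (-2.92), Manf (-2.62) and Dnajc3 (-2.54) followed. The members higher in α cells were Prdx4, with 54.1, 62.1, 38.1 and 114 CPM in α batches against 5.58, 23.4 and 26.5 CPM in β batches (1.85, adjusted p = 0.00171), and Ern1 (1.23, adjusted p = 0.01).

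Derl3 and Edem1 had few reads in α cells. Derl3 had 72 reads over the 4 α batches at E17.5, 1 of them at 0, against 10844 reads over the 3 β batches. At P60 it had 109 reads over 5 α batches, 3 of them at 0, against 2266 over 5 β batches. At E17.5 a Derl3 read was found in 5 of 65 α cells and 55 of 57 β cells, and at P60 in 2 of 83 α cells (2.41%) and 52 of 129 β cells (40.3%). The fitted differences of Derl3 (-7.71 at E17.5, -3.90 at P60) rest on these few α-cell reads and are not bounds. Edem1 had 437 reads in α cells and 8516 in β cells at E17.5, found in 12 of 65 α cells and 53 of 57 β cells.

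The change of these differences with age is the interaction given above. At P60 29 members differed, 1 higher and 28 lower in α cells, where 12.9% of all genes were called, 5.92% higher and 7.02% lower. The median log2 difference was -0.93, against 0.02 for all genes. Ero1lb had 113, 119, 74.6, 184 and 143 CPM in α batches against 2849, 2202, 2921, 2161 and 2078 CPM in β batches (-4.27, SE 0.26, adjusted p = 4.7e-15). Wfs1 had 17.48, 24.3, 16.6, 13.0 and 31.4 CPM in α batches against 144, 104, 148, 146 and 126 CPM in β batches (-2.70, SE 0.30, adjusted p = 1.24e-08). In log2 difference, Sdf2l1 had -2.33, Dnajb11 -2.01, Hyou1 -1.34 and Hspa5 -0.84, and Prdx4 remained higher in α cells (1.77). The members not called were Hsp90b1 (-0.37), Txndc5 (-0.02), Eif2ak3 (-0.23), Ern1 (0.52), Herpud1 (-0.79), Syvn1 (-0.71), Sec61b (-0.44), Ssr2 (0.30) and Ssr4 (0.11). Averaged over the 6 shared stages 35 members differed, 2 higher and 33 lower in α cells (28.8% of all genes called, 14.1% higher and 14.6% lower), the others being Ssr4, Eif2ak3 and Txndc5. In FACS-sorted batches alone 18 members were called at P60. At E17.5 replicate 3 was the only FACS-sorted β batch, so no count is given for that stage. On the spike-in scale 24 were called at E17.5 and 29 at P60. At E17.5, 36 fitted differences were negative in each of these fits.

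Summed over the members, α batches held 4415 to 5358 CPM at E17.5 and β batches 19993 to 21524 CPM. At P60 the sums were 6479 to 8007 CPM in α batches and 12038 to 17030 CPM in β batches. The main hormone transcripts, Gcg in α cells and Ins1 with Ins2 in β cells, were also followed. Their level was on average 58.9 times the member sum in α cells at P60 and 16.2 times at E17.5. In β cells it was 45.8 times the member sum at P60 and 8.82 times at E17.5. With the hormone genes left out of the library size, 14 members were called between P60 and E17.5 in α cells and 18 in β cells. The shares of all genes in these fits are not given here.

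ERSE carriers were compared with the 22 members whose promoters lack the element as a description, with no test. In single β cells between P60 and E17.5 the 10 carriers had a median log2 change of -0.98, with 1 called higher and 7 lower, and the 22 others -0.22, with 1 called higher and 7 lower. In bulk the medians were -0.82 in carriers and -0.04 in the others. In α cells they were 0.57 in carriers and 0.58 in the others. Ero1lb, a carrier, rose while Hspa5, Creld2, Pdia6, Calr, Hsp90b1, Syvn1 and Derl3 fell in single β cells.

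Within batches, β cells with more Hspa5 also had more of most other members. Over the cells of each β batch with at least 10 cells, the Spearman correlation of a member with Hspa5 was taken and its median over batches recorded. Over the 37 other members these medians had a median of 0.405, and 35 were positive and 24 above 0.3. Pdia6 and Pdia4 (0.64 each) and Manf and Sdf2l1 (0.63 each) were the highest, Ero1lb had 0.22, and Ero1l the lowest at -0.10. In α cells the median was 0.207, with 34 positive and 14 above 0.3. Cells of a batch share a library preparation and differ in depth and in hormone share, so these values are given without a p. The correlation with Hspa5 was not taken for genes outside the members. Whether the members differ from other genes in it was not tested.

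The rest of the secretory pathway was followed in 6 lists of other genes. Counts for the lists of other folding factors and other degradation genes are not given here. In α cells between P60 and E17.5, 10 of 17 genes of COPII export from the ER rose and 0 fell, with 9 of 18 genes of protein targeting and signal peptide cleavage and 6 of 14 genes of N-glycosylation higher and 0 lower, against 4.3% of all genes higher and 5.66% lower. These lists were not refitted with equal weight per cell or on the spike-in scale, where the calls of the members turned to 2 higher and 11 lower or shrank to 1. Sec11c, a signal peptidase subunit, changed by 1.92 (adjusted p = 4.52e-05), Ostc, of the oligosaccharyltransferase, by 1.25 (adjusted p = 7e-06), and the vesicle cargo receptor Tmed2 by 0.86 (adjusted p = 6.18e-06). In β cells over the same interval, where 3.08% of all genes were higher and 3.89% lower, 1 of the export genes rose, Sar1a (0.66). Of the targeting genes 2 rose and 1, Sec11a (-1.11), fell, and of the glycosylation genes Ddost (-0.59) and Rpn1 (-0.70) fell. Erp29, a disulfide isomerase-like folding factor, fell in α cells (-1.20) and β cells (-1.55). Tmx1, of the same list of other folding factors, also fell in α cells (-1.28, adjusted p = 1.09e-05). Of the list of other degradation genes, Selk (1.06) and Vimp (1.02) rose in α cells. At E17.5 12 of the 17 export genes, 12 of the 18 targeting genes and 10 of the 14 glycosylation genes were lower in α than in β cells and 0 were higher, against 5.06% of all genes lower and 3.25% higher. Of 11 genes of the PERK and ATF4 branch, 3 rose in α cells (4.3% of all genes higher) and 3 rose and 1 fell in β cells (3.08% of all genes higher and 3.89% lower) at P60. Atf4, its central transcription factor, rose in both, by 1.38 in α and 1.03 in β cells. At E17.5 Sesn2 of this branch was higher in α than in β cells (2.42, adjusted p = 3.21e-05) and Atf4 lower (-1.22, adjusted p = 0.000231).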

How the data were processed

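The deposited values were raw read counts per gene, made by the authors before any normalization. The submitters' processing notes name the builds GRCm38 and mm10 and the tools DESeq 1.20.0, TopHat2 2.1.0 and HTSeq 0.6.0. Their roles and the strand setting are not given in the sources used here, so reads of overlapping genes may be shared. The deposited gene lengths served for levels per kb, and the TPM tables were not used.

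The tables hold 40824 gene rows and 92 ERCC spike-in rows. The spike-ins, with 2.781% of the reads in the median cell, were left out of library sizes. No pair of bulk libraries was identical. Unselected single-hormone cells were used, and the 51 other columns of single cells (enriched for proliferation, of several hormones, or Ngn3-GFP) were not used. Each batch was a replicate, as the sum of its cells' reads. Of the batches 23 were FACS-sorted and 22 picked by hand. Reads carry no molecular identifiers, so counting errors do not describe molecules.

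Genes passing filterByExpr (16086 in bulk, 18537 in single cells) were fitted in R 4.3.3 with edgeR 4.0.16. The quasi-likelihood test used TMM factors, with 1 fit over all bulk libraries and 1 over all batches with collection method as a covariate. P-values were adjusted over all genes by Benjamini and Hochberg, with a threshold of 0.05, in 22 comparisons. The fits were tested on simulated data with known changes. Alternatives used DESeq2 1.42.0, limma 3.58.1, other scalings, covariates, collection methods and libraries. The limma fit with equal weight per cell took the mean log2(CPM + 1) of each batch's cells, with CPM not scaled by TMM. Promoters are RefSeq's for GRCm38.p6.

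All 38 members were accounted for. Per comparison, up to 4 called members in each direction with the smallest adjusted p, and always Hspa5, Xbp1, Ero1lb, Wfs1 and Derl3, were to be given in full, with at most 2 called genes of each other pathway list. The always-named genes are not printed for every comparison, and not between P9 and E17.5 in α cells. The members and lists were chosen with earlier results of these data known.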

Additional observations from a re-analysis of the deposited data

Results flagged for a closer look

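The CPM of the 38 members and of their sum were checked in the 4 groups with 4 or 5 batches, 156 checks in all. In 10 of them 1 batch stood far from the rest by Dixon's 95% limit, which chance gives in about 1 in 20. In β cells at P60, replicate 2 was low in Dnajb9 (201, others 447 to 504), Xbp1 (308, others 458 to 509) and Ssr3 (199, others 312 to 349). Replicate 1 of the same group was high in Sec61b (329, others 244 to 267). At P3, β replicate 4 was high in Hyou1 (562, others 274 to 334). In α cells at E17.5, replicate 4 was low in Manf (57.6, others 106 to 114) and high in Ero1l (49.0, others 22.6 to 24.4), and replicate 2 was high in Ssr4 (331, others 243 to 252). In α cells at P60, replicate 5 was high in Sel1l (66.8, others 31.0 to 41.1) and replicate 2 in Sec61a1 (363, others 196 to 235).

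The change from E17.5 to P60 differed between α and β cells by the interaction test of edgeR in 15 members. The α change minus the β change, in log2, was 2.37 for Creld2, 2.07 for Sdf2l1, 1.86 for Hyou1, 1.81 for Ssr3, 1.80 for Hspa5, 1.76 for Hsp90b1, 1.75 for Pdia4, 1.71 for Sec61b, 1.68 for Manf, 1.62 for Ssr2, 1.53 for Pdia3, 1.39 for Dnajc3, 1.26 for Pdia6, 1.25 for P4hb and 1.00 for Calr.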

How the results depend on the processing

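The members called in each comparison, and always Hspa5, Xbp1, Ero1lb, Wfs1 and Derl3, were followed over all alternatives. Of their values 4559 kept their side of the threshold, and their direction where called. A further 609 lost the call, 29 gained one and 7 turned. Turns were counted for called members only, and gains could come only from the always-named genes. Calls gained by other members thus enter only the counts of members called that follow. With equal weight per cell (limma), the α change between P60 and E17.5 was -0.073 for Ssr4, -0.15 for Hsp90b1, -0.16 for Canx and -0.034 for Sec61b. That of Pdia3 between P9 and E17.5 was -0.12, and the α to β difference of Ssr2 over shared stages was 0.00080. Scaled to spike-ins, Pdia3 between P9 and E17.5 in α cells was -0.10. The cause was not tested for these or for the counts that follow, except that fewer batches entered the collection-method fits.

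Counts of members called in bulk moved as follows. Here and below, the counts from other fits stand without the shares of all genes called in them. With the acinar covariate, 2 were called between P60 and E17.5, 0 between P9 and E17.5, 10 over all stages and 0 in neighbouring steps (15 in the analysis reported). With the Xist covariate the counts were 4 between P60 and E17.5, 4 between P9 and E17.5, 2 between P60 and P9, and 10 over all stages. With no filter they were 17 between P9 and E17.5, 8 between P60 and P9 and 35 in neighbouring steps, and with DESeq2 13 between P9 and E17.5 and 31 in neighbouring steps. Leaving out 1 library gave 5 to 12 between P60 and E17.5, 2 to 3 between P9 and E17.5, 1 to 3 between P60 and P9, 11 to 26 over all stages and 0 to 16 in neighbouring steps.

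In β cells, FACS-sorted batches gave 1 between P60 and E17.5, 0 between P9 and E17.5 (6 at an unadjusted p below 0.05), 0 between P60 and P9 (1 unadjusted) and 1 over all stages. Hand-picked batches gave 3 between P9 and E17.5, 0 between P60 and P9 (5 unadjusted) and 8 over all stages. Spike-in scaling gave 5, 1, 0 (3 unadjusted) and 7 for these 4 comparisons. Equal weight per cell gave 22 between P9 and E17.5, 2 between P60 and P9 and 27 over all stages, DESeq2 10 between P9 and E17.5 and 2 between P60 and P9, and β batches alone 2 between P60 and P9. Leaving out 1 batch gave 14 to 18, 3 to 6, 1 to 1 and 13 to 15. The only FACS-sorted β batch was replicate 3 at E17.5, with 21 cells, and replicate 2 at P9, with 23 cells.

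In α cells, FACS-sorted batches gave 4 between P60 and E17.5, 5 between P9 and E17.5, 0 between P60 and P9 (9 unadjusted) and 4 over all stages. Hand-picked batches gave 5, 4, 0 (5 unadjusted) and 4, and spike-in scaling 1, 0 (1 unadjusted), 0 (1 unadjusted) and 1. Between P60 and P9 no filter gave 1, and α batches alone 0 by edgeR (9 unadjusted), with 10 over all stages. Leaving out 1 batch gave 11 to 15, 8 to 11, 0 to 2 and 12 to 16. The only hand-picked α batch was replicate 4 at E17.5, with 6 cells, and replicate 4 at P9, with 15 cells. Between α and β cells, spike-in scaling gave 24 at E17.5 and FACS-sorted batches 18 at P60. The interaction gave 0 in each of these fits by edgeR (10 unadjusted on the spike-in scale, 15 in FACS-sorted batches). Leaving out 1 batch gave 33 to 36 at E17.5, 25 to 31 at P60, 35 to 36 over shared stages and 14 to 16 for the interaction. Single-cell batches of other stages than E17.5, P9 and P60 were not left out.

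Library sizes without hormone genes moved the median change of all genes to -0.22 in bulk between P60 and E17.5, to -0.12 in bulk between P9 and E17.5, to -0.18 and -0.22 in α cells at P60 and P9 against E17.5, and to 0.19 between α and β cells at E17.5. Replicate numbers were not shown to pair samples: same-numbered bulk libraries had deviations correlated at -0.139 to 0.427 (7 of 21 stage pairs over 0.1), and single-cell batches at -0.129 to 0.200 (9 of 217). With the replicate block 15 members were called in bulk between P60 and E17.5, 18 over all stages and 13 in neighbouring steps, 17 in β cells and 13 in α cells between P60 and E17.5, 15 in the interaction, and 0 in α cells between P60 and P9 (10 unadjusted).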
